A study of Mus musculus with 12 samples.

Results

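The respiratory chain of the inner mitochondrial membrane passes electrons from NADH (through complex I) and from succinate (through complex II) to ubiquinone, then through complex III and cytochrome c to complex IV, where oxygen is reduced. The protons pumped on the way drive ATP synthase, complex V. Most subunits are encoded in the nucleus and imported, while a small core set is transcribed from the mitochondrial genome. In the kidney cortex the reabsorbing epithelium of the proximal tubule is packed with mitochondria and depends on this ATP. The genes described here were the protein-coding rows of the expression table whose symbols begin with Nduf, Uqcr, Cox4 to Cox8 or Atp5, together with Sdha, Sdhb, Sdhc, Sdhd, Cyc1 and Cycs. This gave 97 of the 55421 rows (96 symbols, Atp5o being listed by 2 gene identifiers), of which 45 belonged to complex I (8 of them assembly factors rather than subunits), 4 to complex II, 9 to complex III, 1 was Cycs, 20 belonged to complex IV (Ndufa4 and its paralog Ndufa4l2 included) and 18 to complex V. A further 12 rows that matched by name were processed pseudogenes and were not members.

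Renal cortex RNA came from male mice of 4 groups with 3 mice in each. KO-D mice were diabetic ANRIL knockouts, WT-D mice diabetic wild types, KO-C mice knockout controls and WT-C mice wild-type controls. The knockout removes a stretch of chromosome 4 that corresponds to the human locus of ANRIL, a long noncoding RNA, and the labels give the name 129S6/SvEvTac-Del[4C4-C5]1Lap/Mmcd and an age of 8 weeks for all mice, wild types included. Diabetes was induced with streptozotocin, which destroys insulin-producing beta cells, in 5 daily doses of 50 mg/kg, and tissue was taken after 2 months, while controls received buffer. The deletion is present in every cell of the knockouts, and renal cortex is a mixture of cell types, so that in these bulk libraries fewer cells of a type and less RNA per cell cannot be told apart. No row of the table carried the name ANRIL, so the knockout was not checked on its own transcript.

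Levels are given as CPM, the reads of a gene per 1000000 reads assigned to genes, scaled between libraries by the trimmed mean of M-values (TMM). Differences are on the log2(CPM + 0.1) scale with their standard error (SE), and p-values are from limma, adjusted by the Benjamini-Hochberg method over the 18461 genes that passed the filter on low counts. A gene was called at an adjusted p under 0.05. The 12 libraries held 23781928 to 67336174 reads in genes, of which the members took 1.76 to 2.49%. WT-D replicate 3 stood apart from the other diabetic libraries, at 5.92 on the first principal component against 47.9 to 66.0 for the other 5, with controls at -65.4 to -33.0, and it was the highest WT-D library for 89 of 94 members. WT-C replicate 1 was the highest WT-C library for 82 of 94.

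Of the 97 members, 94 passed the filter. Cox7b2 and Cox8c, isoforms known from testis, and the second Atp5o row did not. Per kilobase of each gene's principal annotated transcript, the members ranged over 0.462 to 1707 CPM per kb in WT-C. Atp5b, the catalytic beta subunit of ATP synthase, was highest at 1707 CPM per kb, followed by Ndufa4 at 1468 and Atp5g3 at 1445. The order below Atp5b depends on the length used: over all annotated exons of a gene Atp5b was highest at 772 CPM per kb, followed by Cox6b1 at 694. Per kilobase of principal transcript the median member stood at 465 CPM per kb in complex V, 348 in complex IV, 353 in complex III, 242 in complex II and 144 in complex I. Counting may mix a gene with others that share its exons: 35 members overlapped another annotated gene by at least 1 exonic base, and for Ndufaf2 the overlap took 65.7% of its exonic bases. The library kit does not mark strand.

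The promoters of respiratory genes are known to hold sites for nuclear respiratory factor 1 (NRF1), a transcription factor that binds a GC-rich palindrome. RefSeq promoters of the GRCm38.p6 build (250 bases before to 50 after each gene's start) were at hand for 76 of the 96 symbols, 75 of them tested here. Exact matches to the 8-base core GCGCATGC, on either strand, stood in promoters of 13 of the 75 genes (17.3%), against 811 of 26949 other genes (3.01%). A gene counted once if any of its promoters held a match. The other genes were all those with a promoter entry, whether or not they passed the filter on low counts. The full palindrome, in which the core runs on into its own reverse complement, stood in 7 (9.33%) against 283 (1.05%). The windows below show the core or the palindrome in capitals with its surroundings, 30 bases on the strand of the gene, for the 10 members with a core match whose RNA was lower in diabetes averaged over both genotypes.
Ndufa11: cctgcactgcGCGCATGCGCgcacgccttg
Ndufa6: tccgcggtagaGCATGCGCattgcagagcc
Ndufa8: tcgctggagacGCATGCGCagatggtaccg
Sdhb: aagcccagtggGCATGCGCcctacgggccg
Uqcr11: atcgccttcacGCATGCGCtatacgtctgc
Uqcrc1: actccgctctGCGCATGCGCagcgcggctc
Cycs: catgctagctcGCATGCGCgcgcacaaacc
Cox6a1: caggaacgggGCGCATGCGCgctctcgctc
Atp5g2: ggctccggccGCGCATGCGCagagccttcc
Atp5k: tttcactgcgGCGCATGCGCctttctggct
The Sdhb window lies at chr4:140961206-140961235 on the plus strand and that of Cycs at chr6:50566611-50566640 on the minus strand. The Atp5g2 window is at chr15:102671070-102671099 and that of Uqcr11 at chr10:80406807-80406836, both on the minus strand. Members with the core had a median log2 difference of -0.87 in KO-D against KO-C (8 of 13 lower) and members without it -0.47 (23 of 62 lower). In WT-D against WT-C the medians were -0.55 (3 of 13 lower) and -0.55 (13 of 62 lower). In the average over both genotypes, by which the windows were picked, they were -0.67 (10 of 13 lower) and -0.50 (45 of 62 lower). This split was not adjusted for GC content, which moved with the differences in KO-D for members and other genes alike, as given below. A link between the core and the differences was not tested.

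The same windows were searched on both strands for 3 other motifs. The ETS core CCGGAAGT, bound by the GABP factor, stood in promoters of 5 of 75 members (6.67%) and of 4.30% of the other genes. A YY1 motif stood in 6 (8.00%) and 0.976%, and the motif of estrogen-related receptors (ERR), TCAAGGTCA, in 2 (2.67%) and 0.460%. Neither of these strings is part of another motif searched. A match describes the letters only. As 1 example each of an ETS and an ERR match, chosen after the values were seen, the stretch before the start that holds no annotated exon is shown with the match in capitals for Uqcr11 (chr10:80406831-80407071, minus strand, 241 bases) and Atp5g3 (chr2:73911327-73911576, minus strand, 250 bases), the second holding the ERR motif as its reverse complement.
Uqcr11: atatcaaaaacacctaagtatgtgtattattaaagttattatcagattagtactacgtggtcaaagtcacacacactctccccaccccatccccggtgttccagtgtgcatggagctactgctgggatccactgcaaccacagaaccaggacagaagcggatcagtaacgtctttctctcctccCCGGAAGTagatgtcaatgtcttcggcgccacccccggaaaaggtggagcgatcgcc
Atp5g3: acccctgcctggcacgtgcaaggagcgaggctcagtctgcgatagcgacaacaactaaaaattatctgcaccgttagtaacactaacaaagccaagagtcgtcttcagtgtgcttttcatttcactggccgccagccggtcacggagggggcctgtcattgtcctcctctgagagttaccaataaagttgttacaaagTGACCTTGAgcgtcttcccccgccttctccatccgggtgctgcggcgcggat

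Members of every complex were lower in diabetic than in control cortex in both genotypes. In KO-D against KO-C, 38 of 94 members were lower and 0 were higher, when 31.1% of all genes tested were called, 17.4% lower and 13.6% higher. The median member stood at -0.48 on the log2 scale, against 0.02 for all tested genes, 86 of 94 were below 0, and for 60 every KO-D library lay below every KO-C library, as it did for 25.4% of all tested genes. In WT-D against WT-C, 20 of 94 were lower and 0 higher, when 22.0% of all genes tested were called, 8.22% lower and 13.7% higher. The median member was at -0.55, against 0.05 for all tested genes, 90 of 94 were below 0, and for 27 every WT-D library lay below every WT-C library, as for 15.8% of all tested genes. The WT-D count depended on single libraries: it was 1 without WT-D replicate 1, 1 without WT-D replicate 2, 68 without WT-D replicate 3, 4 without WT-C replicate 1, 31 (1 of them higher) without WT-C replicate 2 and 11 without KO-D replicate 3. The KO-D count was 26 to 44 when each library was left out in turn. How many of all tested genes were called in fits that left out a library is not given here. In such fits the WT-D median ran from -0.71 without WT-D replicate 3 (0.09 for all tested genes) to -0.39 without WT-C replicate 1 (0.01). At an adjusted p of 0.01, 26 members were lower in KO-D (10.5% of all tested genes were) and 1 in WT-D (1.88%).

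The same 9 members were lower in both genotypes, which is 45% of the WT-D list and 23.7% of the KO-D list. Over all tested genes, those lower in both made up 58.6% of the WT-D list and 27.6% of the KO-D list (4.82% of genes tested), so the members' overlap was no larger than that of all genes. They were Ndufb3, Ndufb4, Ndufs6, Ndufaf6 and Ndufaf8 of complex I, Sdhb, Sdhc and Sdhd of complex II and Uqcrfs1 of complex III, of which Ndufaf6 was named after its values were seen. These 2 comparisons share no library. Averaged over both genotypes (6 mice against 6), 67 of 94 members were lower and 1 was higher, when 43.5% of all genes tested were called, 21.6% lower and 21.9% higher. The means of both diabetic groups lay below the means of both control groups for 83 of 94 members, and 62 followed the order KO-D, WT-D, KO-C, WT-C from lowest to highest. These 2 counts were not made over all tested genes, and the order was not tested. WT-D replicate 3 and WT-C replicate 1, each the highest of its group for most members, enter these means. All 6 diabetic libraries lay below all 6 control libraries for 5.40% of tested genes and for 2 members, Sdhb and the assembly factor Ndufaf7, the second named after its values were seen.

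**Figure D1:**
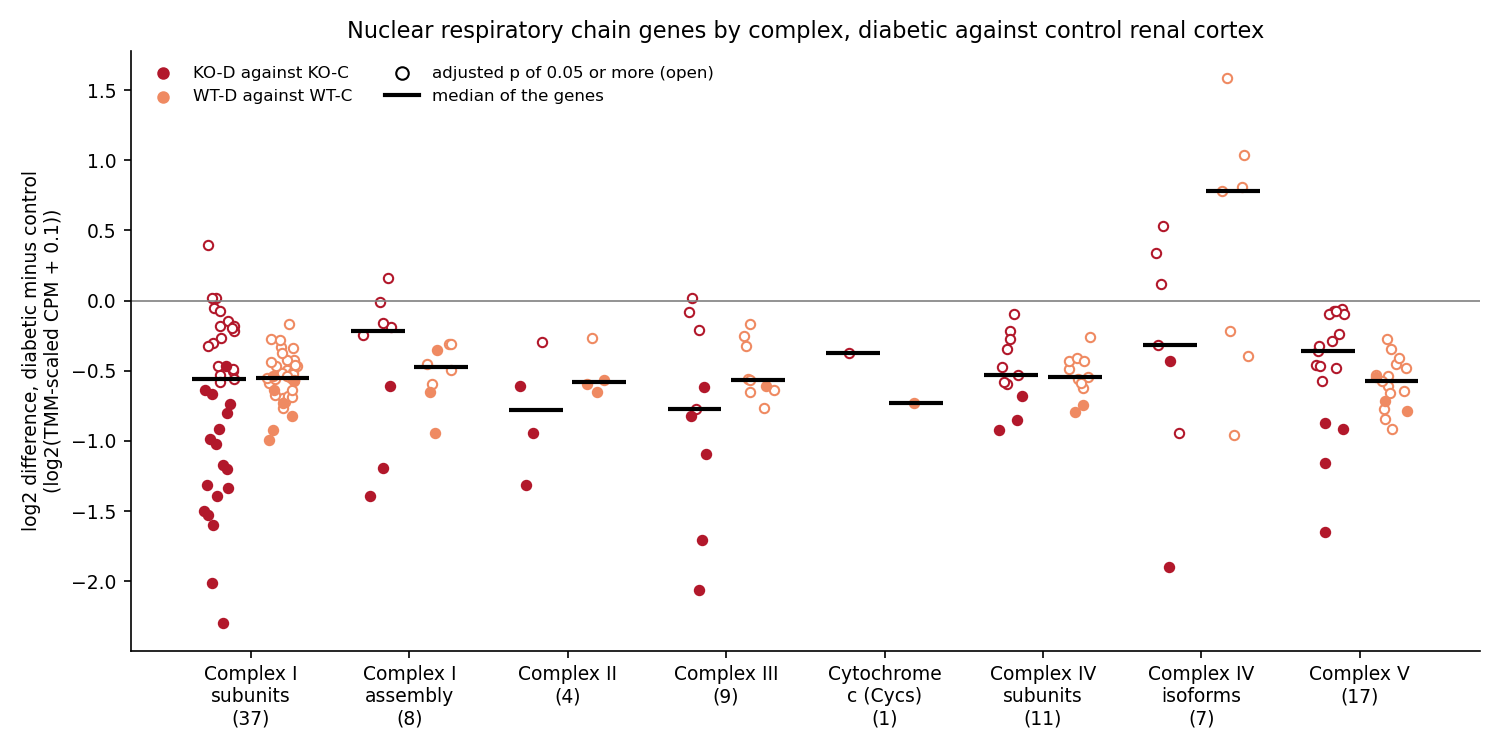
Log2 difference between diabetic and control renal cortex for each of the 94 tested members (points, filled where the adjusted p was under 0.05), grouped by complex, with KO-D against KO-C left of WT-D against WT-C in each group and the median as a bar. Complex I subunits spread to -2.30 in KO-D, while the WT-D points of the same group lie between -0.996 and -0.17.

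Complex I takes electrons from NADH at the tip of its matrix arm and delivers them to ubiquinone where that arm joins the membrane arm. Of its 45 members, 21 were lower in KO-D (median -0.53) and 10 in WT-D (median -0.54). Among the 7 core subunits 4 were lower in KO-D (median -0.66) and 0 in WT-D (median -0.44). In WT-D 2 of them had an unadjusted p under 0.05 (limma), as did 6956 of all 18461 tested genes.

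Ndufs7 (ENSMUSG00000020153, chr10:80249121-80256794 of mm10), the core subunit that carries the last iron-sulfur cluster before ubiquinone, had the largest fall of all members in KO-D against KO-C. It stood at 10.7, 23.5 and 11.8 CPM in KO-D, against 74.9, 73.6 and 65.7 in KO-C. It stood at 60.5, 28.03 and 74.2 CPM in WT-D, against 74.9, 73.0 and 61.1 in WT-C. All KO-D values lay below all KO-C values, while the WT-D and WT-C values overlapped. Ndufs7 fell by 79.7% in KO-D (log2 difference -2.30 ± 0.33 SE, adjusted p = 0.00029, limma), and in WT-D the difference was -0.47 ± 0.33 (adjusted p = 0.31, limma). The difference between these 2 effects was -1.83 and did not pass the test (adjusted p = 0.088, limma).

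Ndufb3 (ENSMUSG00000026032, chr1:58586384-58595964), an accessory subunit of the membrane arm, was the member lower at 0.01 in WT-D. Its levels were 58.2, 69.3 and 107 CPM in WT-D, against 181, 127 and 127 in WT-C. In KO-D they were 55.5, 56.5 and 56.4 CPM, against 115, 124 and 104 in KO-C. Neither pair of groups overlapped, and the KO-D libraries were nearly equal. Ndufb3 fell by 47.1% in WT-D (log2 difference -0.92 ± 0.20 SE, adjusted p = 0.0074, limma) and fell by 50.7% in KO-D (-1.02 ± 0.20, adjusted p = 0.0023, limma). Among the named members called in WT-D it was the one that passed in all 12 fits that left out a library, with adjusted p up to 0.044 (limma), and the other 12 passed in 3 to 10 of those fits.

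Several other accessory subunits fell steeply in KO-D. Ndufb7, of the membrane arm, stood at 17.7, 30.01 and 18.6 CPM in KO-D, against 94.3, 94.5 and 73.4 in KO-C, and fell by 75.2% (adjusted p = 0.00047, limma). Ndufa13, an accessory subunit also known as Grim19, stood at 46.5, 68.5 and 45.4 CPM in KO-D, against 159.8, 180.3 and 139 in KO-C, and fell by 66.9% (adjusted p = 0.00044, limma). Ndufs6, a zinc-binding subunit of the NADH-oxidizing module, stood at 31.0, 48.9 and 36.2 CPM in KO-D, against 94.7, 106 and 84.6 in KO-C, and fell by 59.8% (adjusted p = 0.0026, limma). In these 3 genes the groups did not overlap, and in KO-D replicate 2 was the highest. For 29.98% of its exonic bases Ndufa13 overlaps Tssk6 on the opposite strand. In WT-D against WT-C the log2 differences were -0.57 for Ndufb7 (adjusted p = 0.20, limma), -0.56 for Ndufa13 (adjusted p = 0.11) and -0.82 for Ndufs6, which passed (adjusted p = 0.043, limma).

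The other accessory subunits named by the rule were Ndufa2, Ndufa7, Ndufa8, Ndufa11 and Ndufb4. Log2 differences in KO-D against KO-C were -1.39, -1.50, -1.20, -1.52 and -0.99, all called, and in WT-D against WT-C they were -0.72, -0.76, -0.55, -0.59 and -0.996, of which that of Ndufb4 was called. Ndufs1 of the NADH-oxidizing module, named after its values were seen, differed by -0.07 in KO-D and -0.17 in WT-D.

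Of the 8 assembly factors, which help build complex I without staying in it, 3 were lower in KO-D and 3 in WT-D, with medians of -0.22 and -0.47. Ndufaf8, a partner of the modifying enzyme Ndufaf5, had 1.71, 3.02 and 2.20 CPM in KO-D, against 6.66, 6.31 and 5.33 in KO-C, and 4.90, 2.73 and 5.64 CPM in WT-D, against 11.1, 7.32 and 6.86 in WT-C. Both pairs of groups were apart, and Ndufaf8 fell by 61.96% in KO-D (adjusted p = 0.0029, limma) and fell by 48.03% in WT-D (adjusted p = 0.033, limma). Ndufaf3, which acts on the ubiquinone-binding module, fell by 56.2% in KO-D (adjusted p = 0.00095, limma). Ndufaf4, its partner and the assembly factor with the highest mean CPM, differed by -0.19 ± 0.20 SE in KO-D (adjusted p = 0.51, limma) and -0.45 ± 0.20 in WT-D (adjusted p = 0.11).

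Complex II is succinate dehydrogenase, shared with the citric acid cycle, and is the complex with no subunit from the mitochondrial genome. The same 3 of its 4 genes were lower in each genotype. Sdhb (ENSMUSG00000009863, chr4:140961203-140979193), the iron-sulfur subunit, stood at 176, 195 and 163 CPM in KO-D, against 436, 477 and 412 in KO-C. It stood at 291, 242 and 405 CPM in WT-D, against 551, 465 and 434 in WT-C. Every diabetic library lay below every control library. Sdhb fell by 59.7% in KO-D (log2 difference -1.31 ± 0.18 SE, adjusted p = 0.00028, limma) and fell by 36.4% in WT-D (-0.65 ± 0.18, adjusted p = 0.024, limma). The membrane anchors followed. Sdhc was at 220.0, 223 and 208 CPM in KO-D, against 408, 441 and 404 in KO-C, and it fell by 48.0% in KO-D and fell by 33.6% in WT-D. Sdhd was at 193, 171 and 194 CPM in KO-D, against 247, 305 and 300.2 in KO-C, and it fell by 34.4% in KO-D and fell by 32.5% in WT-D. For both anchors the adjusted p lay between 0.0017 and 0.032 (limma). Sdha, the flavoprotein that oxidizes succinate, was at 603, 476 and 516 CPM in KO-D, against 555, 644 and 768 in KO-C, with overlap in both genotypes and log2 differences of -0.30 ± 0.18 SE in KO-D and -0.27 ± 0.18 in WT-D (adjusted p = 0.24 and 0.31, limma). No difference between the 2 diabetes effects passed the test in this complex, with that of Sdhb at -0.66 (adjusted p = 0.26, limma).

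Complex III hands electrons from ubiquinol to cytochrome c. In KO-D 5 of its 9 members were lower (median -0.77) and in WT-D 1 was (median -0.56). That one was Uqcrfs1, the Rieske iron-sulfur protein. It was at 278, 253 and 276 CPM in KO-D, against 386, 426 and 425 in KO-C, and at 262, 295 and 416 CPM in WT-D, against 516, 466 and 477 in WT-C. The groups were apart in both genotypes, although WT-D replicate 3 came near the controls. Uqcrfs1 fell by 34.7% in KO-D (adjusted p = 0.014, limma) and fell by 34.5% in WT-D (adjusted p = 0.021, limma). The small subunits Uqcr11 and Uqcr10 fell most in KO-D. Uqcr11 (ENSMUSG00000020163) was at 17.6, 30.7 and 17.7 CPM in KO-D, against 95.2, 95.1 and 78.3 in KO-C, and fell by 76.1% (log2 difference -2.06 ± 0.32 SE, adjusted p = 0.00045, limma). In WT-D it was at 77.3, 43.1 and 104 CPM, against 162, 98.5 and 84.1 in WT-C, and the groups overlapped (adjusted p = 0.15, limma). Uqcr10 fell by 69.3% in KO-D (adjusted p = 0.0011, limma). Cyc1, the cytochrome c1 that passes electrons on to Cycs, fell by 43.4% in KO-D (adjusted p = 0.0056, limma). Uqcrc2, a core protein named after its values were seen, differed by -0.21 in KO-D and -0.17 in WT-D.

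Cycs, the mobile electron carrier that also triggers apoptosis when released from mitochondria, was called in the wild types. It was at 415, 435 and 674 CPM in WT-D, against 1009, 701 and 788 in WT-C, and at 587, 369.9 and 505 CPM in KO-D, against 594, 663 and 602 in KO-C. Neither pair of groups overlapped. Cycs fell by 39.8% in WT-D (adjusted p = 0.035, limma), and the log2 difference of -0.37 ± 0.23 SE in KO-D did not pass (adjusted p = 0.23, limma). The 2 effects differed by 0.36 (adjusted p = 0.66, limma), which does not show a difference between the genotypes.

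**Figure D2:**
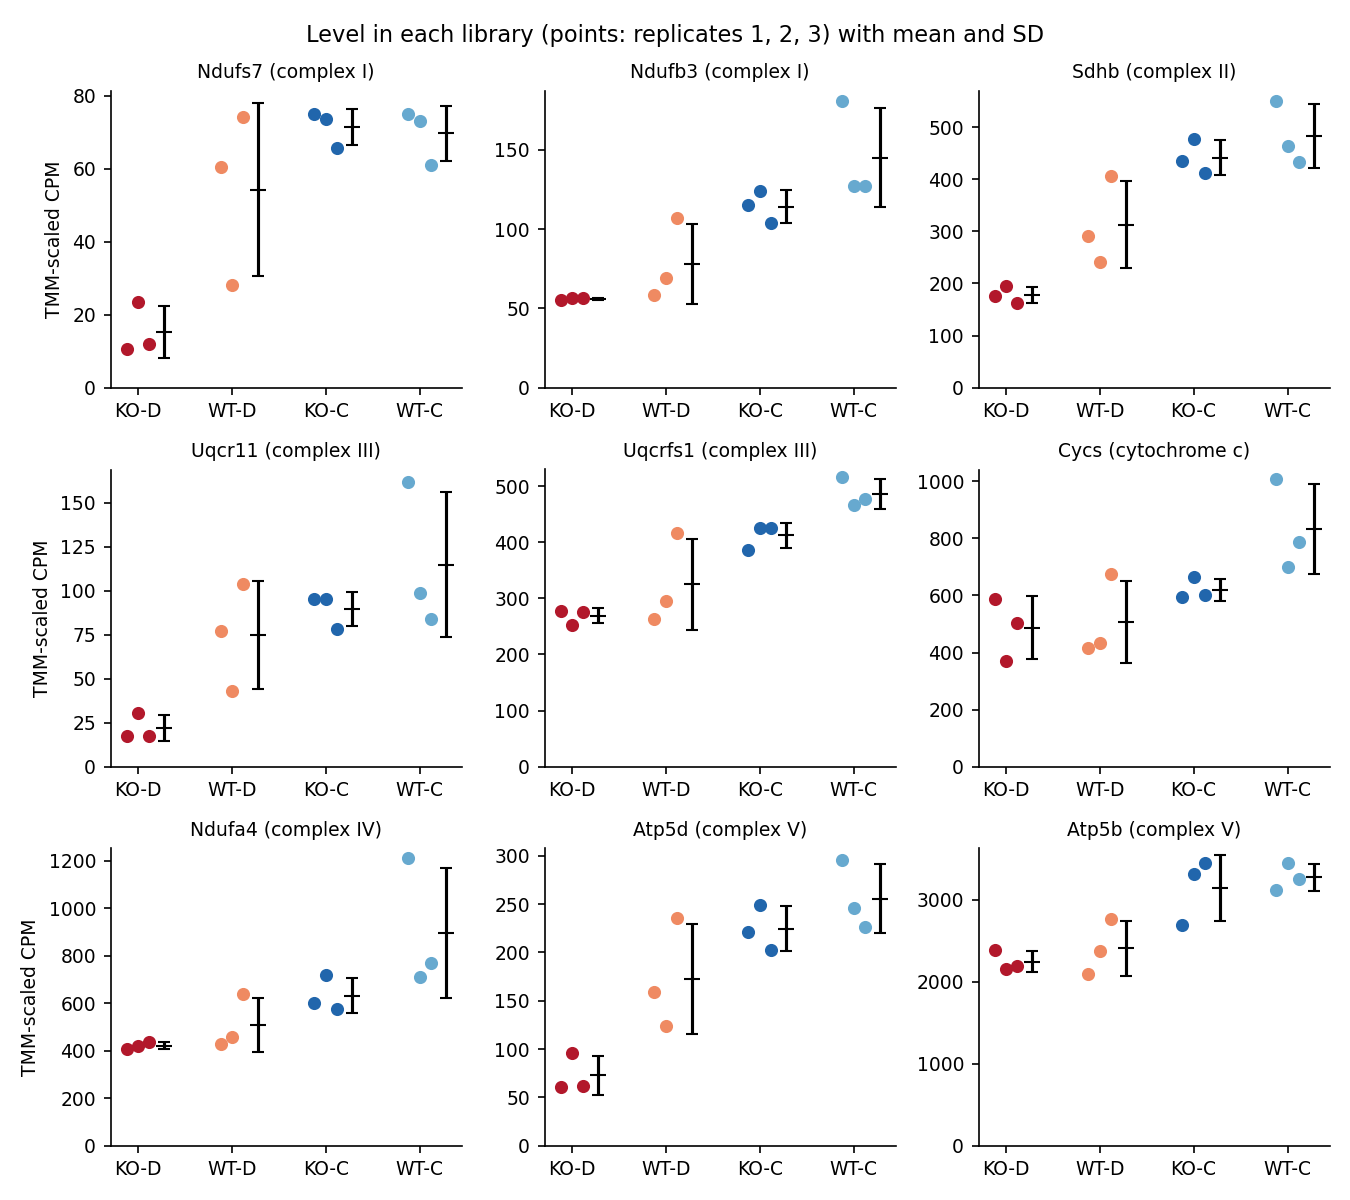
TMM-scaled CPM of 9 members in each of the 12 libraries (points, replicates 1 to 3 from left to right), with the mean and SD beside them, in the order KO-D, WT-D, KO-C, WT-C. Ndufs7, Uqcr11 and Atp5d are low in all 3 KO-D libraries, and WT-D replicate 3 is the highest WT-D library in every panel.

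Complex IV, cytochrome c oxidase, has 11 common subunits and 9 tissue-restricted or paralogous forms among the members. Of the common subunits 3 were lower in KO-D (median -0.53) and 2 in WT-D (median -0.54). Ndufa4, once assigned to complex I and now known as a subunit of complex IV, was the most abundant member of the complex by mean CPM. It was at 429, 458 and 638 CPM in WT-D, against 1210, 708 and 767 in WT-C, with no overlap, and fell by 42.4% (log2 difference -0.80 ± 0.22 SE, adjusted p = 0.020, limma). In KO-D it was at 406, 419 and 438 CPM, against 602, 717 and 576 in KO-C, also apart, with a log2 difference of -0.58 ± 0.22 that did not pass (adjusted p = 0.058, limma). Cox7a2, the common form of subunit 7a, fell by 40.2% in WT-D (adjusted p = 0.035, limma) and differed by -0.27 ± 0.23 SE in KO-D (adjusted p = 0.39). Cox4i1, the regulatory subunit 4, fell by 44.5% in KO-D (adjusted p = 0.017, limma) and Cox6a1 fell by 37.7% (adjusted p = 0.012, limma). Cox5a and Cox5b, which both contact the catalytic core, had log2 differences of -0.21 and -0.10 in KO-D and -0.43 and -0.41 in WT-D, none called. Cox6b1, Cox7b and Cox8a had differences of -0.53, -0.35 and -0.47 in KO-D and -0.62, -0.56 and -0.58 in WT-D, none called.

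The alternative forms made up a small share of each pair. Per kilobase, Cox4i2, a form of subunit 4 known from lung, was 0.152% ± 0.034 of the Cox4 pair in KO-D, 0.141% ± 0.026 in WT-D mice, 0.0630% ± 0.014 in KO-C and 0.0527% ± 0.026 in WT-C (SD, n = 3). Its share was higher in each of the 6 diabetic libraries (0.116 to 0.185%) than in each of the 6 control libraries (0.0326 to 0.0816%). The share of Ndufa4l2 in its pair with Ndufa4 was apart in the same way (0.132 to 0.414% against 0.0446 to 0.112%). A share also rises when the main form falls, as Cox4i1 did in KO-D. Cox4i2 itself rested on 5 to 41 reads per library and differed by 0.34 ± 0.36 SE in KO-D and 0.81 ± 0.36 in WT-D, neither of which passed (adjusted p = 0.51 and 0.12, limma). The Cox7a1 share of the Cox7a1 and Cox7a2 pair was 7.37% ± 1.01 in KO-D, 9.07% ± 1.36 for WT-D, 7.59% ± 0.78 in KO-C and 7.37% ± 1.84 in WT-C (SD, n = 3), with overlap between diabetic and control libraries in both genotypes.

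4 of the 7 tested isoforms stood above 0 in WT-D. Ndufa4l2, the paralog of Ndufa4 known to be induced by hypoxia, was the one member called higher, and that in the average over both genotypes (log2 difference 0.78 ± 0.25 SE, adjusted p = 0.022, limma). It was at 2.73, 2.00 and 2.58 CPM in WT-D, against 1.33, 0.953 and 1.12 in WT-C, without overlap, and at 0.821, 1.77 and 1.13 CPM in KO-D, against 0.411, 1.17 and 0.985 in KO-C, with overlap. The call passed in 10 of the 12 fits that left out a library (adjusted p up to 0.057, limma). These levels rested on 14 to 221 reads per library. Cox6b2, a form known from testis, was at 8.48, 7.45 and 12.3 CPM in WT-D, against 5.05, 8.35 and 3.53 in WT-C, with overlap (log2 difference 0.78 ± 0.29 SE, adjusted p = 0.068, limma). Cox8b, a form known from heart and skeletal muscle, was at 7.11, 2.00 and 2.37 CPM in WT-D, against 1.46, 1.21 and 0.577 in WT-C. It was listed at 0 in KO-D replicate 1, and its difference had an SE of 0.93. Cox6a2, the other heart and skeletal muscle form named by the rule, went the other way: it was at 0.537, 0.263 and 0.327 CPM in KO-D, against 0.998, 1.24 and 3.36 in KO-C, on 8 to 116 reads per library, and fell by 73.1% (adjusted p = 0.0072, limma). Cox7a2l, a factor of supercomplex assembly, fell by 25.7% in KO-D (adjusted p = 0.016, limma).

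**Figure D3:**
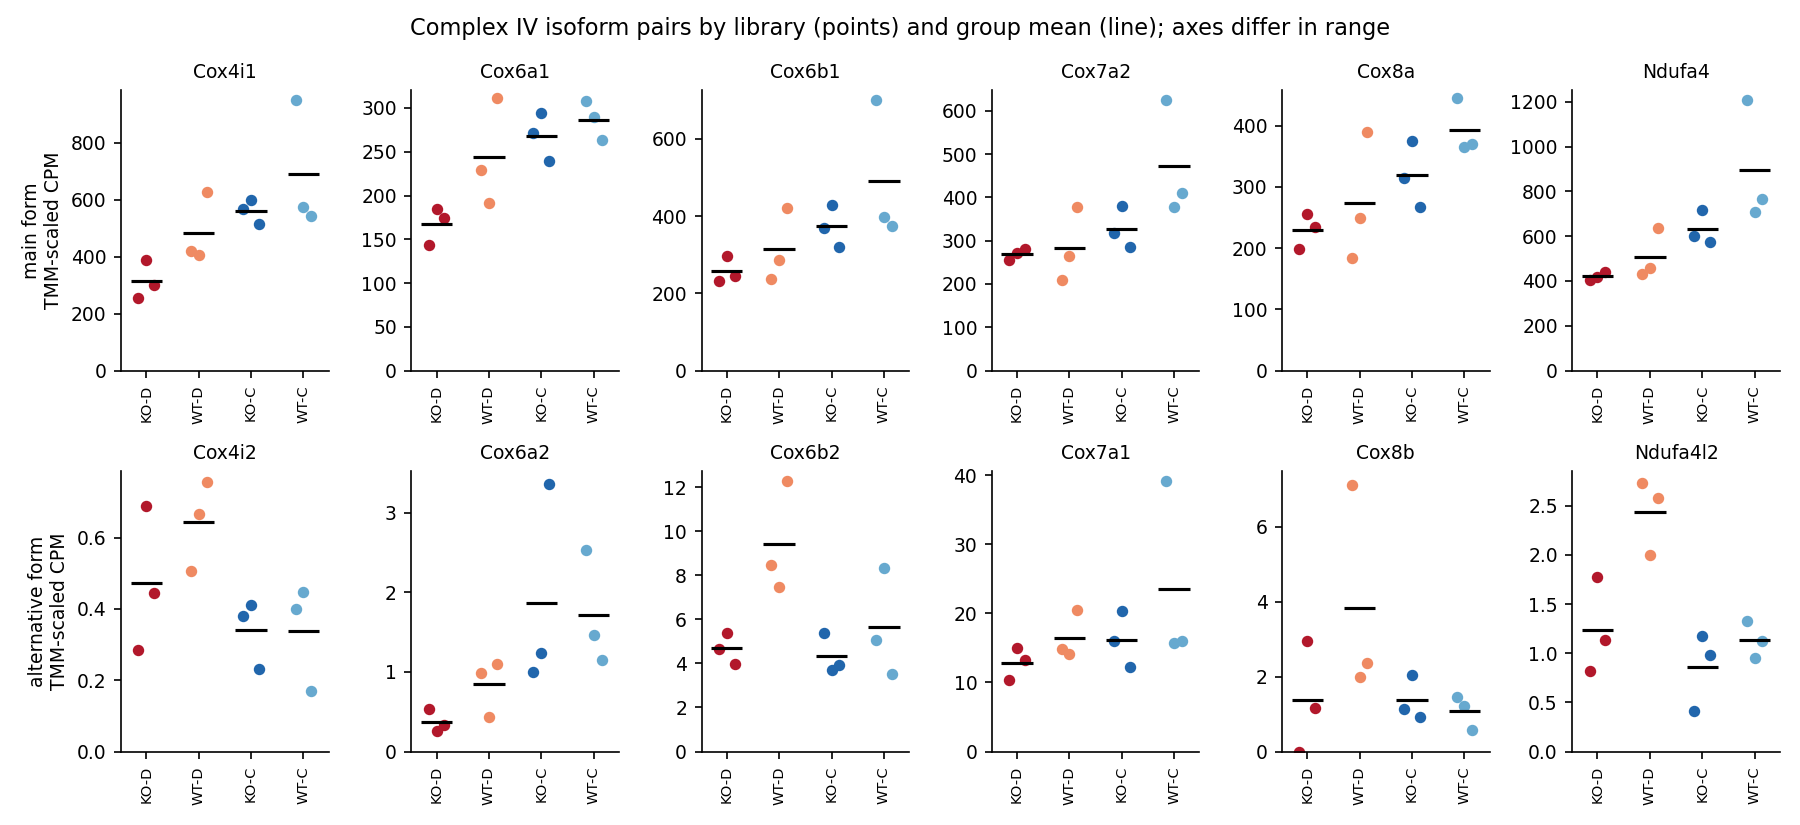
TMM-scaled CPM of 6 pairs of complex IV forms, the main form above and the alternative form below, in each library (points) with the group mean (line), in the order KO-D, WT-D, KO-C, WT-C and with a separate axis from 0 in each panel. The KO-D mean is the lowest for all 6 main forms, while the WT-D mean is the highest for Ndufa4l2, Cox4i2, Cox6b2 and Cox8b.

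Complex V makes ATP at its F1 head, which is driven through a central stalk by a ring of c subunits in the membrane. Of its 17 tested members 4 were lower in KO-D (median -0.36) and 3 in WT-D (median -0.57). Atp5b, its most abundant member, was at 2387, 2154 and 2192 CPM in KO-D, against 2686, 3309 and 3441 in KO-C, and at 2094, 2370 and 2759 CPM in WT-D, against 3112, 3447 and 3255 in WT-C. Both pairs of groups were apart, and the log2 differences of -0.48 and -0.45 did not pass one by one (adjusted p = 0.11 and 0.14, limma), while the average did (-0.47 ± 0.15 SE, adjusted p = 0.025). The call of the average passed in 5 of the 12 fits that left out a library (adjusted p up to 0.068, limma). Atp5d, the delta subunit of the central stalk, was at 60.6, 96.1 and 61.9 CPM in KO-D, against 222, 249 and 203 in KO-C, without overlap. It fell by 68.1% in KO-D (log2 difference -1.65 ± 0.23 SE, adjusted p = 0.00027, limma), the smallest p of all members in that comparison, and differed by -0.61 ± 0.23 in WT-D (adjusted p = 0.074). The 4 peripheral stalk genes, which hold the head still against the ring, had a median of -0.09 in KO-D with 0 called and -0.60 in WT-D with 1 called. That one was Atp5f1. It was at 402, 419 and 534 CPM in WT-D, against 760.5, 598 and 613 in WT-C, and fell by 31.4% (adjusted p = 0.031, limma).

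The c subunit is encoded by 3 genes whose mature proteins are identical. Atp5g1 fell by 55.1% in KO-D (adjusted p = 0.0022, limma) and Atp5g2 fell by 46.9% (adjusted p = 0.0013, limma). Atp5g3 differed by -0.28 ± 0.24 SE in KO-D (adjusted p = 0.39, limma) and fell by 39.1% in WT-D (adjusted p = 0.047, limma). That WT-D call passed in 3 of the 12 fits that left out a library (adjusted p up to 0.22, limma). Per kilobase, Atp5g3 gave 84.2% ± 2.85 of the 3 genes' level in KO-D, 77.3% ± 4.35 for WT-D, 77.1% ± 1.54 in KO-C and 80.4% ± 2.23 in WT-C (SD, n = 3). Its share in KO-D (81.0 to 86.6%) did not overlap that in KO-C (75.8 to 78.8%), and in WT-D (72.5 to 81.0%) it overlapped that in WT-C (77.9 to 82.2%).

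The knockout by itself moved no member past the threshold. In KO-C against WT-C limma called 0 of 94 members, with 9 at an unadjusted p under 0.05, edgeR called 0 and DESeq2 0, when limma called 0.00% of all tested genes. The number of all tested genes at that unadjusted p is not given here. The median member stood at -0.33, against 0.03 for all tested genes and -0.28 for other tested genes with a transcript under 1 kb, and it was -0.10 with the trends over GC content and transcript length removed. WT-C replicate 1, the highest WT-C library for most members, entered this comparison, and without it the median was -0.16.

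Within diabetes, the comparison of KO-D with WT-D called 15 of 94 members lower and 0 higher, when 5.53% of all tested genes were called, 5.43% lower and 0.103% higher. At 0.01, limma called 0 members, and 35 had an unadjusted p under 0.05, for which the number over all tested genes is not given here. The 15 were 9 members of complex I, Sdhb of complex II, Uqcr11, Uqcr10 and Uqcrc1 of complex III, and Atp5d and Atp5g1 of complex V. The largest differences among these 15 were those of Ndufs7 (-1.79 ± 0.33 SE, adjusted p = 0.012, limma), Ndufb7 (-1.76 ± 0.31, adjusted p = 0.011) and Uqcr11 (-1.72 ± 0.32, adjusted p = 0.012). The count was 0 without WT-D replicate 1, without WT-D replicate 3 and without KO-D replicate 3, and 1 without KO-D replicate 1. KO-D against WT-C, which changes genotype and diabetes together, gave 67 lower and 0 higher members with a median of -0.79, when 40.1% of all tested genes were called, 20.7% lower and 19.4% higher.

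The difference of the 2 diabetes effects passed for 0 of 94 members in limma, with 14 at an unadjusted p under 0.05, and for 0 in edgeR and 1 in DESeq2, when limma called 0.00% of all tested genes and DESeq2 3.71%. Its median over members was -0.02, and the number of all tested genes at an unadjusted p under 0.05 is not given here. The longer list in KO-D is therefore not shown to differ from that in WT-D gene by gene, with the smallest adjusted p among the members at 0.088 for Ndufs7 (limma). The count was 6 without WT-D replicate 2 and 1 without KO-D replicate 2.

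GC content moved with the difference between genotypes. In KO-D against WT-D, members whose principal transcript had 55% GC or more had a median of -0.84 with 11 of 28 lower, and members under 50% had a median of -0.06 with 1 of 38 lower. Other tested genes showed the same gradient, with medians of -0.48 at 55% or more (20.1% lower) and 0.13 under 50% (0.204% lower). Across the 94 members Spearman's rho between GC and the difference was -0.62, and across 18336 other genes -0.57, where genes share their libraries and are not independent. In KO-D against KO-C the member medians were -0.93 (19 of 28 lower) and -0.24 (9 of 38 lower), with rho at -0.46, and the other genes stood at -0.43 (38.9% lower) and 0.18 (6.43% lower). In WT-D against WT-C rho was -0.01 over members, whose medians were -0.56 at 55% or more and -0.54 under 50%. An index of the GC gradient per library, in which a positive value means higher GC-rich genes, was -0.60, -0.17 and -0.52 in KO-D, against 0.33, -0.03 and 0.29 for WT-D, 0.25, 0.25 and 0.06 for KO-C and 0.06, 0.16 and 0.03 in WT-C. The KO-D libraries were the 3 lowest of the 12.

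With the trends over GC content and transcript length removed, 40 members were lower and 2 higher in KO-D than in KO-C, 33 of these 42 among the 38 called before, and the median was -0.38. In WT-D against WT-C 16 were lower and 3 higher, 9 of these 19 among the 20, with a median of -0.32, and in KO-D against WT-D 2 were lower. The median of all tested genes was then -0.02 in KO-D against KO-C and -0.03 in WT-D against WT-C. How many of all tested genes were called with the trends removed is not given here. Ndufs7 then differed by -1.60 in KO-D (adjusted p = 0.00044, limma), Sdhb by -0.89 (adjusted p = 0.00048) and Atp5d by -1.002 (adjusted p = 0.00064), while Cox6a1, at -0.03 (adjusted p = 0.88), and Cox4i1, at -0.23 (adjusted p = 0.30), were no longer called. Short transcripts also moved together in WT-D: other tested genes under 1 kb had a median of -0.38 and those of 1 kb or more 0.12.

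**Figure D4:**
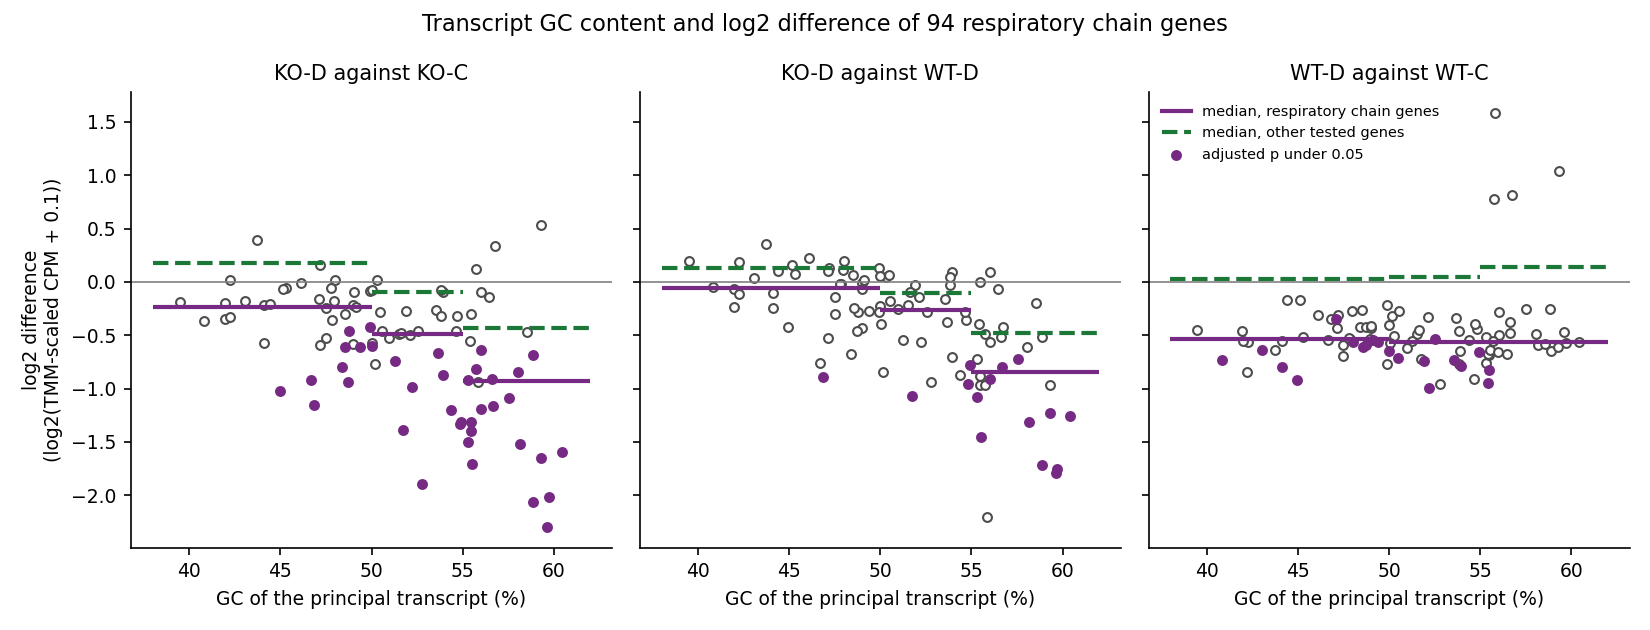
Log2 difference of the 94 members against the GC content of their principal transcript in 3 comparisons (filled points: adjusted p under 0.05), with the median of members (solid) and of all other tested genes (dashed) in 3 bands of GC. Differences grow more negative with GC in both comparisons that involve KO-D, for members and other genes alike, and not in WT-D against WT-C.

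Genes of the mitochondrial genome, transcribed apart from the nuclear members, took 16.7 to 28.1% of reads, ribosomal and transfer RNAs included. The medians of its 13 protein subunits were -0.24 in KO-D against KO-C and -0.52 in WT-D against WT-C, with 0 of 13 called in each. In the average over both genotypes 2 of 13 were lower, a smaller share than the 21.6% of all tested genes. These were mt-Nd4l (log2 difference -0.74, adjusted p = 0.027, limma) and mt-Atp8 (-0.66, adjusted p = 0.048), named after their values were seen. Of 38 tested assembly factors outside the name rule, 17 were lower in KO-D and 8 in WT-D, with 0 higher. Of 20 markers of mitochondrial content (import, chaperone, cristae and carrier genes), 6 were lower in KO-D and 7 in WT-D, with 0 higher and medians of -0.28 and -0.43. Beside these 2 lists, 17.4% of all tested genes were lower in KO-D and 8.22% in WT-D. The RNA of citrate synthase, Cs, named after its values were seen, differed by -0.04 in KO-D and 0.04 in WT-D (adjusted p = 0.84 in both, limma). An RNA level does not measure mitochondrial mass.

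Of 24 tested regulators of mitochondrial biogenesis, 4 were lower and 1 higher in KO-D, and 2 lower and 0 higher in WT-D. Of all tested genes, 17.4% were lower and 13.6% higher in KO-D, and 8.22% lower and 13.7% higher in WT-D. The share of lower regulators was thus close to that of all genes in both. The genes singled out here were chosen after their values were seen. Esrra, which encodes estrogen-related receptor alpha, fell in KO-D (log2 difference -2.23, adjusted p = 0.00025, limma) and differed by -0.19 in WT-D (adjusted p = 0.69). Polrmt, the RNA polymerase of the mitochondrial genome, fell in KO-D (-1.54, adjusted p = 0.00049, limma) and differed by -0.02 in WT-D (adjusted p = 0.96). The values of Esrra and Polrmt were not adjusted for GC content, which moved with the differences in KO-D, as given above. Ppargc1a, the coactivator PGC-1alpha, rose in KO-D (0.53, adjusted p = 0.028, limma). Nrf1, whose motif is shown above, differed by -0.14 in KO-D and -0.05 in WT-D, neither of which passed (adjusted p = 0.60 and 0.85, limma). For none of the genes tested did the difference between the 2 diabetes effects pass in limma, as given above.

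Cell type markers moved in both directions: those of the proximal tubule were lower, as the members were, and many of the others were higher. Of all tested genes, 17.4% were lower and 13.6% higher in KO-D, and 8.22% lower and 13.7% higher in WT-D. Of 12 proximal tubule markers, 11 were lower in KO-D and 4 in WT-D, with 0 higher, and their summed level was 21112 to 29022 CPM in KO-D, against 56863 to 65289 in KO-C, and 21895 to 43542 CPM in WT-D, against 63126 to 87219 in WT-C. All 12 were detected in every library. Of 5 podocyte markers 5 were higher in each genotype, of 5 endothelial markers 3 in KO-D and 4 in WT-D, of 6 fibroblast markers 5 and 6, and of 6 macrophage markers 4 and 5. Of 3 distal convoluted tubule markers 3 were higher in KO-D and 2 in WT-D, of 4 thick ascending limb markers 1 in each, of 5 injured tubule markers 4 and 3, and of 4 lymphocyte markers 3 and 1. Of 6 collecting duct markers 2 were higher and 1 lower in KO-D, and 1 was higher in WT-D. Among the 3 WT-D libraries, replicate 3 had both the highest summed proximal tubule level (43542 CPM) and the member median nearest to the controls (-0.16 relative to the WT-C mean, with the other WT-D libraries at -0.71 and -0.69). Within KO-D the order was the reverse. Replicate 1 had the highest summed level (29022 CPM) and the lowest member median (-0.93), and replicate 2 the lowest summed level (21112 CPM) and the highest member median (-0.75). The part of cell composition in the members' differences was not tested.

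**Figure D5:**
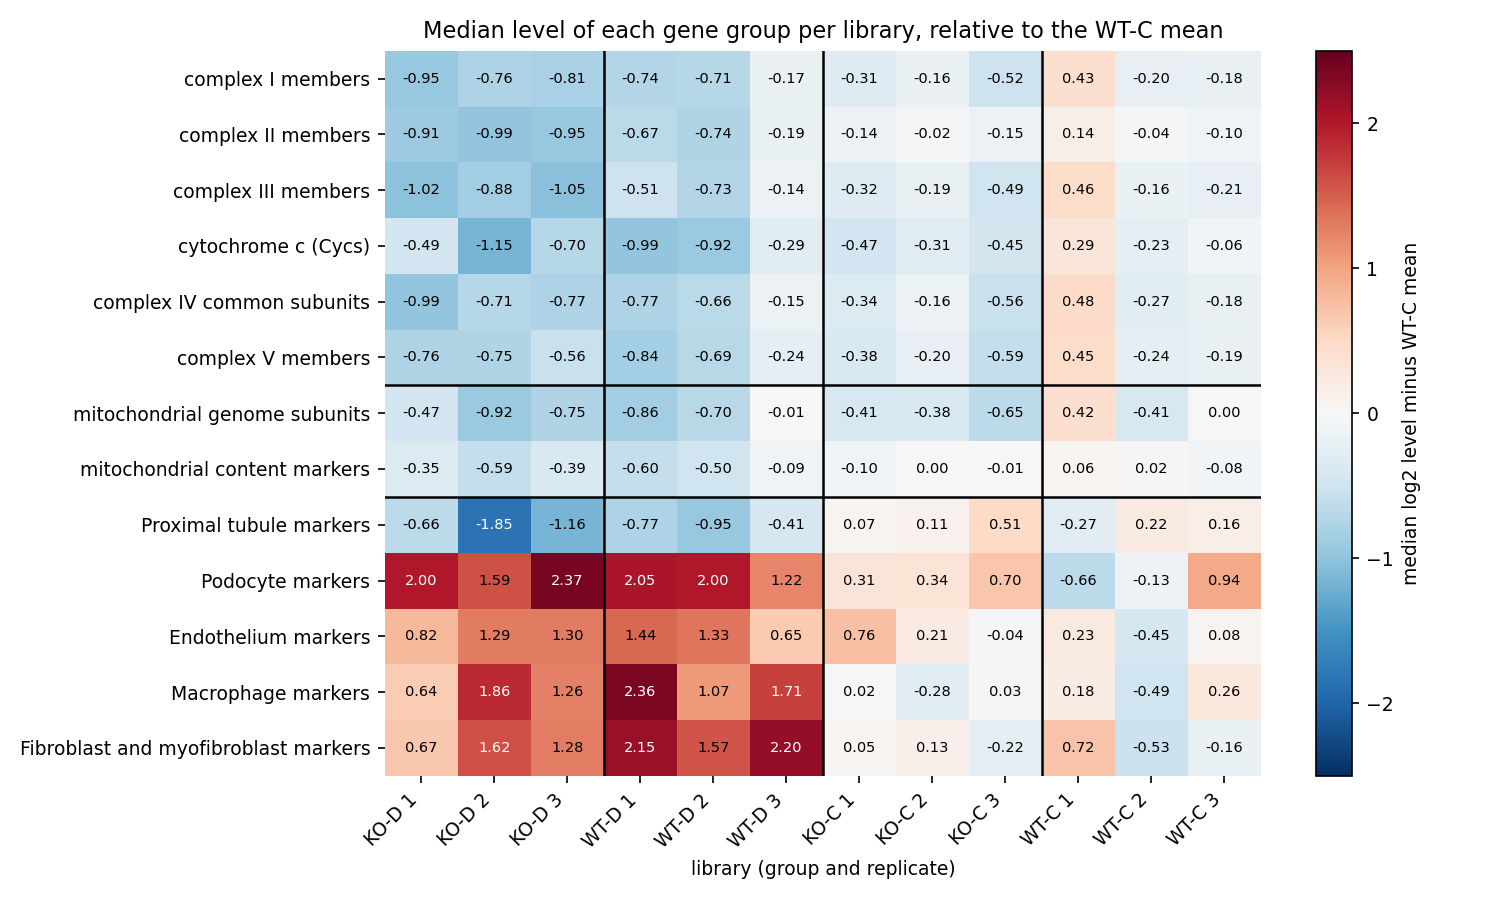
Median log2 level of each gene group relative to its WT-C mean in each library, in the order KO-D, WT-D, KO-C, WT-C, for the nuclear members by complex (top), mitochondrial genes (middle) and cell type markers (bottom). Over all tested members the KO-D libraries and WT-D replicates 1 and 2 lie at -0.93 to -0.69, WT-D replicate 3 is at -0.16, KO-C is at -0.49 to -0.15 and WT-C replicate 1 is at 0.43. Single complexes depart from this, as in complex V, where KO-D replicate 3 is at -0.56 and KO-C replicate 3 at -0.59.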

How the data were processed

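Renal cortex RNA of 12 mice was sequenced with an unstranded poly(A) kit. Alignment to mm10 was done by the authors in STAR 2.7.3a, and after counting per gene they deposited CPM values (counts per gene scaled to the total of each library) made with edgeR 3.28.0 in R 3.6.1, per the submitters' processing notes. The deposited CPM values were whole multiples of 1 read for 298586 of 298586 values above 0 (within 0.01 of a read), so that the reads were recovered and gave the library totals.

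Genes with enough reads (filterByExpr, minimum 10 in a library and 15 in all) were kept, 18461 of 55421. Log2(TMM-scaled CPM + 0.1) was fitted with limma 3.58.1 (lmFit and eBayes with a trend, R 4.3.3) over all 4 groups, with 8 residual degrees of freedom, and 7 contrasts were adjusted by Benjamini-Hochberg over all tested genes. Each library came from a separate mouse, so the p-values measure the spread between mice. edgeR 4.0.16 (quasi-likelihood) and DESeq2 1.42.0 on the recovered reads, other scalings, pseudocounts and filters, a replicate block, removal of the GC and length trends (loess) and leaving out each library were the alternatives. The fit was tested on simulated data.

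Transcript length and GC content were those of each gene's principal transcript (the longest, where several were) in GENCODE annotation of the same build. Named members were, per complex, the one with the highest mean CPM and those with the smallest p in each diabetes comparison and their average, up to 15 called at 0.01, the isoform sets, and complex II. Members outside this rule are marked where their values are given, apart from those listed only by a sequence or in a list of calls. Not every gene under this rule is reported here. The members and gene lists were chosen with earlier results of these data known.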

Additional observations from a re-analysis of the deposited data

How the results depend on the processing

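Counts are of members called in either direction. The share of all tested genes called under each setting is not given beside them. Without scaling between libraries, the count was 4 in WT-D against WT-C (3 higher), 25 in KO-D against KO-C, 30 in the average over both genotypes (3 higher), 6 in KO-D against WT-D and 33 in KO-D against WT-C (4 higher), and the medians were -0.16, -0.14, -0.14, -0.13 and -0.25, while the median of all genes stood at 0.42, 0.35, 0.36, 0.13 and 0.54. Relative to all genes the member medians in the first 3 were -0.58, -0.49 and -0.49 without scaling and -0.60, -0.51 and -0.51 with it. Cox5a and Cox7a2l, lower in the average, differed by 0.0401 and 0.0399 without scaling. In WT-D against WT-C the count was 3 with no filter on low values, 48 in DESeq2 (1 higher), 3 with only the compared groups (2 higher), 1 at 0.01, and 36 (3 higher) without WT-D replicate 3 and with trends removed, an alternative chosen after seeing the data. At 0.01 the count in the average was 38. In KO-D against WT-D the count was 8 with upper-quartile scaling, 0 with only the compared groups, 2 with trends removed, 0 with trends removed and without WT-D replicate 3, and 0 at 0.01. In KO-D against WT-C the median was -0.47 with trends removed and -0.49 without WT-D replicate 3 as well. The median difference between the 2 diabetes effects changed sign, to 0.031 with RLE scaling, 0.11 with upper-quartile scaling, 0.027 with a filter at 1 CPM and 0.018 in DESeq2, where 1 member was called. Leaving out each library in turn gave counts of 1 to 68 in WT-D against WT-C, 26 to 44 in KO-D against KO-C, 49 to 76 in the average, 0 to 22 in KO-D against WT-D, 51 to 71 in KO-D against WT-C and 0 to 6 for the difference of the effects, whose median ran over -0.12 to 0.18. Equal replicate numbers showed no pairing of the mice: over 18 pairs the correlation of deviations was -0.35 to 0.29, and 1 of 12 libraries was closest to its own number. The submitters' own sample number behind replicate 3 differs between KO-D and the other groups, so pairing by those numbers was not fully checked. With a replicate block the count was 7 for WT-D against WT-C, and KO-D against WT-D also gave 7. The cause of these changes was not tested. Of 2212 values of named members under the alternatives, 1907 kept their direction and call, 303 kept their direction and lost the call, and 2 turned. These values belong to 90 results that the main fit had called, in both diabetes comparisons, their average and KO-D against WT-D. The named members were picked in part by small p, so these counts describe results that were strong to begin with.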
